A study of Mus musculus with 81 samples.

Results

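The immunoglobulin heavy chain variable (Ighv) segments were taken as every gene whose symbol starts with Ighv, which gave 185 of the 51826 genes in the deposited table. RNA had been sequenced from mouse thymic tissue in 81 libraries of 40 mice of strain C57BL/6 x 129S4Sv/Jae. All mice carried the same 3 alleles, written in the labels as Plk4(Col1a1), rtTA(Rosa) and centrin-GFP(Rosa). Plk4 encodes a kinase that controls centriole number, and the design text gives aneuploidy in tumour development as the subject of the study. The groups were 8 normal thymuses of p53+/+ mice, 1 normal thymus of a p53+/- mouse, thymic lymphomas of 10 untreated p53-/- mice in 23 libraries, of 9 treated p53-/- mice in 18 libraries and of 12 treated p53+/- mice in 31 libraries. Treatment was doxycycline for 2 weeks from 30 days of age, and the normal thymuses were untreated. By the labels 4 of the p53+/+ normal mice were female and 4 male, and the p53+/- normal mouse was male. Female and male mice with lymphomas were 1 and 9 in untreated p53-/-, 5 and 4 in treated p53-/- and 9 and 3 in p53+/-. Sex and group were thus not balanced. The ages at collection are not given in the sources used here. In 13 tumours 4 or 5 biopsies were sequenced, and counts of biopsies were summed per mouse for every comparison between groups, so that the mouse is the replicate.

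An immunoglobulin heavy chain gene is assembled in developing B cells, when the RAG recombinase joins a single V segment to a D and a J segment. Each B cell and all its daughters then transcribe, as a rule, the V segment of its productive joint, so a mixed B-cell population reads from many V segments and the progeny of a single B cell from a single one. Unrearranged V segments give low germline transcripts, T cells assemble their receptors from other loci, and normal thymus holds a small number of B cells and plasma cells.

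The members lay on chromosome 12 between positions 113572927 and 116010093 of build GRCm38 (mm10), 183 of them on the minus strand. The annotation lists 115 as V genes and 70 as pseudogenes, in 16 families named by the first number of the symbol. Family Ighv1 held 93 members and a median of 48.6% of the Ighv counts of normal thymus (range 36.7 to 56.9%), and Ighv5 a median of 9.49%. Over all libraries the members summed to 99590.65 counts. 145 members were above 0 in at least 1 library, and 35 of the 40 at 0 in every library were pseudogenes. Pseudogenes took 0.581% of the Ighv counts.

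Because the V segments resemble one another, the sequences of the 4 genes that took the largest shares of a single mouse's Ighv counts are shown, with the nearest other member for the largest 2. Each is the second exon of the germline segment, 5′ to 3′ on the coding strand, without its first 13 bases, from the GENCODE M21 transcripts of GRCm38. Capitals mark bases that differ from, or have no partner in, the nearest other member. That member is Ighv10-3 for Ighv10-1 and Ighv1-80 for Ighv1-82, and 1 of the 12 differing positions of Ighv1-82 lies in the bases left out. Ighv1-62 is annotated as a pseudogene and the other 5 as V genes. Their positions on chromosome 12, minus strand, are chr12:115208095-115208386, chr12:115371986-115372276, chr12:114048241-114048534, chr12:113981879-113982172, chr12:114479005-114479304 and chr12:115952538-115952829, in the order shown. In the deposited table Ighv1-55 is ENSMUSG00000095589, Ighv11-2 ENSMUSG00000096108, Ighv10-1 ENSMUSG00000095981 and Ighv1-82 ENSMUSG00000095127.
Ighv1-55: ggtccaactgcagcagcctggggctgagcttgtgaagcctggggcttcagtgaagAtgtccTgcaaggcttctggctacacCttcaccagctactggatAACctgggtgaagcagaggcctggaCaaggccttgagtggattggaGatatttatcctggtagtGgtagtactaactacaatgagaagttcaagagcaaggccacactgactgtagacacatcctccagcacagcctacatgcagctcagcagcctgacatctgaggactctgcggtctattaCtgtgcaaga
Ighv1-62: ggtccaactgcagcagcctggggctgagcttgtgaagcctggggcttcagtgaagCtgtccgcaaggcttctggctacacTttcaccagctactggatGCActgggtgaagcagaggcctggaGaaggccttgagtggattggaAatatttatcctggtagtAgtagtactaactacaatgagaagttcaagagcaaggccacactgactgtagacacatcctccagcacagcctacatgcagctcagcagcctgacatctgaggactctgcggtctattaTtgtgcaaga
Ighv11-2: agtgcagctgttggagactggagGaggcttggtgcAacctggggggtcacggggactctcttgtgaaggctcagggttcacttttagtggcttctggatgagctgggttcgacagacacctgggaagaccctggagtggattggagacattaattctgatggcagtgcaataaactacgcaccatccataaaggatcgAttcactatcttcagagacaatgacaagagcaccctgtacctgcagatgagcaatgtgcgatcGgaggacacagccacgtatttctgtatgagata
Ighv11-1: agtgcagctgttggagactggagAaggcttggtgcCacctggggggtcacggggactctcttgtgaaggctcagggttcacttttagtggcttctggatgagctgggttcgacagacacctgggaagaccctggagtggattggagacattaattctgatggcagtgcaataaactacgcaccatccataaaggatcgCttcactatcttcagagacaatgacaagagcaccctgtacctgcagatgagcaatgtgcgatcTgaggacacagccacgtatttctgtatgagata
Ighv10-1: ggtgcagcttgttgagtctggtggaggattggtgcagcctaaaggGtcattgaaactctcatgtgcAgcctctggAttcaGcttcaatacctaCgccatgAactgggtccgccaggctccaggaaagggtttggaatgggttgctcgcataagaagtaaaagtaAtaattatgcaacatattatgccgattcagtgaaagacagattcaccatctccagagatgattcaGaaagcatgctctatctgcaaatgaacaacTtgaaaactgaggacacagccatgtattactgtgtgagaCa
Ighv1-82: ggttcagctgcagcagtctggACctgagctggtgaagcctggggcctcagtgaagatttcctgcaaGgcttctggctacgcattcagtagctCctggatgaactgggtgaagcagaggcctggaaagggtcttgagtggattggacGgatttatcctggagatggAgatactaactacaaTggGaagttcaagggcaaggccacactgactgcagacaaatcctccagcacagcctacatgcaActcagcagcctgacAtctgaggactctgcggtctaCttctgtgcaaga

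Ighv1-55 and Ighv1-62 differ at 10 positions over the whole exon (96.7% identity), and Ighv11-2 and Ighv11-1 at 4 (98.7% identity). Over the 145 members above 0, the median identity to the nearest other member was 94.6%. 30 of them differed from it at fewer than 10 positions, and 2 were identical to it. RSEM shares an ambiguous read between such genes, so the split of reads between close members is uncertain. The annotation is of C57BL/6, and how 129S4Sv/Jae alleles were counted was not tested.

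Library totals ranged from 1.03 M to 26.87 M counts (M for mega). At least 100 Ighv counts, the minimum used for shares, were reached by 50 of the 81 libraries and by 33 of the 40 mice (8 of 8, 1 of 1, 7 of 10, 7 of 9 and 10 of 12, in the order of the groups above). Nothing in the labels says how B-lineage cells were represented in a biopsy. The labelled tissue was checked against marker genes. The summed level of 9 T-lineage markers was 4734 to 7946 CPM (a gene's counts for each M counts of the library) in 7 of the 8 p53+/+ normal thymuses and 1809 to 5362 CPM in 30 of the lymphomas. The tumour of mouse 881 was at 157 CPM, below every other mouse. The normal thymus of mouse 387 was at 850 CPM, its B-cell markers summed to 1676 CPM against 123 to 211 in the other 7, and its thymic epithelium markers summed to 110 CPM against 1355 to 2618. Normal thymuses also held fat markers, at 839 to 7830 CPM against 30.3 to 188 in the lymphomas. Of 7 thymic epithelium markers edgeR called 5, 7 and 6 lower in the untreated p53-/-, the treated p53-/- and the p53+/- lymphomas. Of 6 markers of lymph node and follicle stroma it called 3, 3 and 2 lower, and all 5 fat markers in each group, where 17.6%, 26.7% and 25.3% of all genes were lower, so the stroma count in p53+/- lymphomas is near the background. Of 5 tested myeloid markers edgeR called 0 in each group, and 0 passed at an unadjusted p under 0.05, with median log2 differences of 0.36, 0.09 and -0.05. The part of these cell types in the Ighv differences was not tested.

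Ighv transcripts were abundant in normal thymus and scarce in most lymphomas. Total Ighv expression, as CPM summed over the members, was 1133 in normal mouse 387, 480 in 978, 382 in 624, 219 in 615, 211 in 961, 115 in 980, 94.3 in 787 and 73.3 in 818, a median of 215. The p53+/- normal thymus was at 453. The normal thymuses differed widely among themselves, with mouse 387 the highest, yet 26 of 31 lymphomas lay below all of them (median 24.9 CPM).

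**Figure D1:**
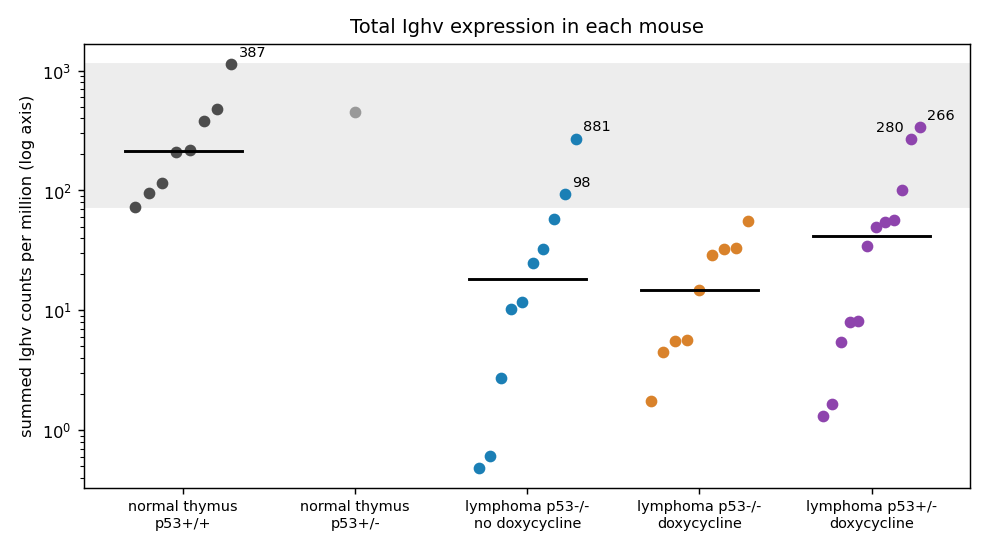
Summed Ighv CPM in each of 40 mice on a log axis, by group, with 1 point per mouse, the group median as a bar and the range of the p53+/+ normal thymuses shaded. All 9 treated p53-/- lymphomas, 8 of 10 untreated p53-/- lymphomas and 9 of 12 treated p53+/- lymphomas lie below the shaded range.

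In untreated p53-/- lymphomas the total was 271 CPM in mouse 881 and 92.6 in mouse 98. It was 57.5 in mouse 157, 32.5 in 325, 24.9 in 120, 11.7 in 899, 10.3 in 202, 2.72 in 637, 0.608 in 562 and 0.486 in 643. Only 881 and 98 of the 10 reached the range of the normal thymuses, and the median was 18.3 CPM (11 without these 2). In treated p53-/- lymphomas the total was 1.74 to 55.2 CPM with a median of 14.8, and none of the 9 overlapped with normal thymus. In treated p53+/- lymphomas the total was 336 CPM in mouse 266, 269 in 280 and 102 in 25, and 1.31 to 56.5 in the other 9, with a median of 41.9. These levels carry no test of the sum. As a background, 17.6%, 26.7% and 25.3% of all 17841 genes tested one by one were lower than in normal thymus in lymphomas of untreated p53-/-, of treated p53-/- and of treated p53+/- mice, by the edgeR test described next. In bulk tissue, fewer B-lineage cells and less Ighv RNA per cell cannot be told apart.

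Tested gene by gene, most of the Ighv segments that could be tested were lower than in normal thymus in both groups of p53-/- lymphomas, and none was higher in any group. In p53+/- lymphomas the result depended on a single normal thymus. The test was edgeR's quasi-likelihood test across all genes with Benjamini-Hochberg adjustment over the 17841 genes that passed a filter on low counts, and a gene is called at an adjusted p under 0.05. Only 54 of the 185 members passed that filter. A member that passed only through its level in normal thymus had to differ, so the counts below describe those 54 and not the locus. In untreated p53-/- lymphomas 47 were called lower and 0 higher, against 17.6% lower and 23.2% higher of all genes. In treated p53-/- lymphomas 50 were called lower and 0 higher, against 26.7% and 25.4%. In treated p53+/- lymphomas 34 were called lower and 0 higher, against 25.3% and 25.6%. The median log2 difference over the 54 was -4.23, -4.48 and -2.44, beside 0.08, -0.04 and -0.00 over all genes tested. The 3 comparisons share their normal thymuses. The p53+/- count rests on normal mouse 387. Without it 8 of 54 were called lower, against 18.4% of all genes, so the share was no higher than the background. In the p53-/- comparisons 45 of 54 each were still called lower without it, against 14.4% (untreated) and 20.8% (treated) of all genes. With single-biopsy tumours only, 12 of 57 were lower in p53+/- lymphomas, against 22% of all genes, again near the background. By DESeq2, which tested 88, 95 and 97 members, 75, 72 and 51 were lower, against 17.5%, 24.0% and 22.3% of all genes.

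Ighv2-9-1 had the largest fall in untreated p53-/- lymphomas. It was at 0.464 to 19 CPM in the 8 normal thymuses (median 1.99), at 0 in 6 of the 10 lymphomas and at most 0.137 CPM in the rest. The groups did not overlap, and the log2 difference was -6.89 (SE 1.25, edgeR adjusted p = 3.48e-05). Ighv9-1 was at 0 to 13.4 CPM in normal thymus (median 1.05) and at most 0.235 CPM in these lymphomas, with a log2 difference of -6.67. Ighv5-16, Ighv14-4 and Ighv3-8 fell by 6.08, 6.06 and 5.90 on the log2 scale. None of these 5 genes passed the filter in the lymphomas alone, so they were testable through their level in normal thymus, and the order of their falls is a description. Without normal mouse 387, Ighv2-9-1 was at -6.38 and Ighv5-16 at -4.75.

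In treated p53-/- lymphomas the largest fall was that of Ighv5-16 with all normal thymuses in the fit. It was at 1.39 to 7.92 CPM in 7 normal thymuses and 102 CPM in mouse 387, and at 0 to 0.384 CPM in the 9 lymphomas, with no overlap (log2 difference -6.74, SE 1.40, edgeR adjusted p = 0.000145). Ighv6-6, Ighv1-64, Ighv1-78 and Ighv4-1 fell by 6.43, 6.30, 6.30 and 5.95. Ighv6-6 was at 1.69 to 12.4 CPM in normal thymus and at 0 in 6 of the 9 lymphomas. Without normal mouse 387 the fall of Ighv5-16 was 4.58, less than the 5.78 of Ighv6-6, and that of Ighv1-64 was 3.23 (edgeR adjusted p = 0.0142). Of these 5 genes only Ighv1-64 passed the filter in the lymphomas alone, so the other 4 were testable through normal thymus and their falls are descriptions. The 4 members not called in this comparison were Ighv7-1, Ighv1-82, Ighv1-55 and Ighv11-2, named after their values were seen.

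In treated p53+/- lymphomas the largest falls were smaller and less even over mice. Ighv5-16 was at 0 in 5 of the 12 lymphomas but at 7.8 CPM in mouse 280, inside the range of normal thymus (log2 difference -4.58, SE 1.05, edgeR adjusted p = 0.000427). Ighv11-2, Ighv1-64, Ighv1-53 and Ighv3-8 fell by 4.43, 4.28, 3.86 and 3.85. Ighv5-16 and Ighv3-8 did not pass the filter in the lymphomas alone, as given above, so they were testable through normal thymus and their falls are descriptions. The call of Ighv11-2 was lost without a sex term in the model (-2.44, edgeR adjusted p = 0.132) and under 3 other settings. Without normal mouse 387 the calls of Ighv5-16 (-1.90, adjusted p = 0.154), Ighv1-64 (-1.02, adjusted p = 0.407) and Ighv1-53 (-2.19, adjusted p = 0.0590) were lost. Mouse 387 had 102, 142 and 114 CPM of these 3 genes, against at most 7.92, 8.24 and 31.2 in the other 7 normal thymuses.

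**Figure D2:**
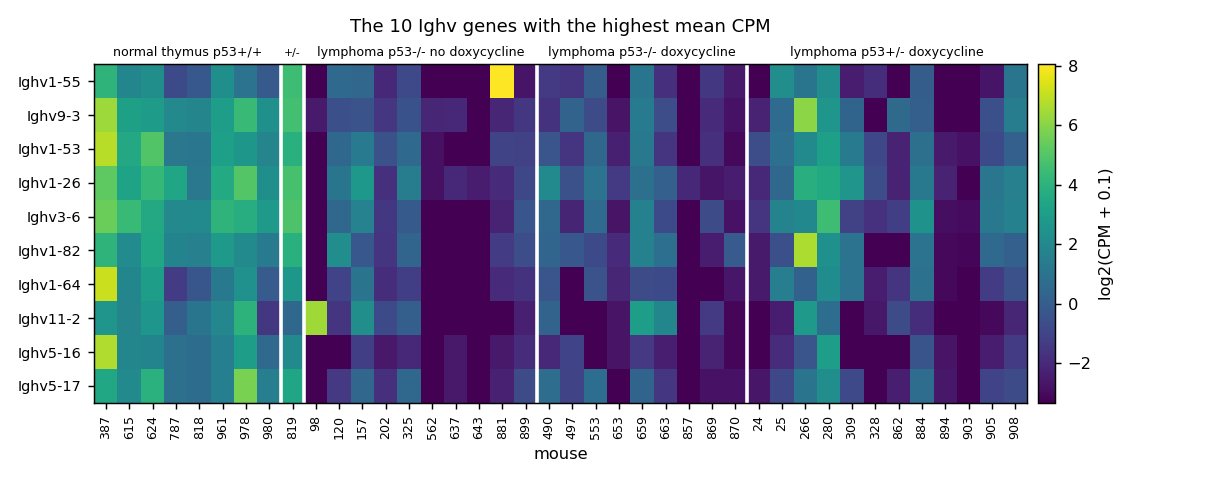
Heat map of log2(CPM + 0.1) of the 10 Ighv genes with the highest mean CPM over 40 mice, with genes in rows, mice in columns and white lines between groups. The p53+/+ normal thymuses express all 10, while among lymphomas Ighv1-55 stands out in mouse 881, Ighv11-2 in mouse 98, and Ighv1-82 and Ighv9-3 in mouse 266.

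Among these 10 genes, Ighv3-6 and Ighv1-26 had the highest medians, 12.4 and 11.1 CPM over 8 mice, followed by Ighv9-3 at 7.73 and Ighv1-53 at 7.44, each with a range over mice wider than the gap to its neighbour. These 4 transcripts are 350 or 351 bases long, and per kb of transcript their medians were 35.6, 31.7, 22 and 21.2 CPM, in the same order. The other 6 genes, with transcripts of 380 to 461 bases, had medians of 6.68 to 11.1 CPM per kb. 55 members were above 0 in all 8 normal thymuses. No member was above 0 in all 10 untreated p53-/- lymphomas, and 3 were in each treated group.

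Among the lymphoma groups edgeR called no Ighv gene and DESeq2 called 1. edgeR was fitted on the lymphomas alone, where 12 of the 185 members passed the filter, and called 0 of them between treated and untreated p53-/- lymphomas, 0 between the p53+/- lymphomas and treated p53-/- ones, and 0 between the p53+/- lymphomas and untreated p53-/- ones. It also called 0 of all 16387 genes, that is 0%, in each of them. At an unadjusted p under 0.05, 1, 4 and 1 of the 12 passed. Named after their values were seen, these were Ighv1-55, lower in treated than in untreated p53-/- lymphomas by 5.41 on the log2 scale (SE 2.26, edgeR adjusted p = 0.366), and 4 genes with values above those of treated p53-/- lymphomas in the p53+/- lymphomas, Ighv9-3, Ighv1-9, Ighv6-3 and Ighv1-64. Ighv9-3 was also the gene of the third comparison. The Ighv1-55 difference rests on mouse 881, where it was at 263 CPM, against 0 to 1.39 CPM in the other 9 untreated lymphomas. DESeq2 called 1 member, Ighv3-5, higher in p53+/- than in treated p53-/- lymphomas, against 0.0424% of all genes (0.0293% lower). Ighv3-5 was at 0 in all 9 treated p53-/- lymphomas and had 5, 3, 1 and 1 counts in 4 of the 12 p53+/- lymphomas, too few for a fold. In the other 2 comparisons DESeq2 called 0 members, against 0.0924% higher and 0.311% lower of all genes in treated against untreated p53-/- lymphomas, and 0.00537% and 0.0269% in p53+/- against untreated p53-/- lymphomas.

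How evenly the counts were spread over members was described by the share of the most counted gene, by the Shannon entropy over genes in bits, and by the number of genes expected in 100 Ighv counts, which puts libraries of different depth on one scale. These are descriptions over the 33 mice with at least 100 Ighv counts and carry no test. Normal thymus was even. The leading gene took 12.5% in mouse 387 (Ighv1-64), 11.1% in 978 (Ighv5-17), 10.8% in 787 (Ighv1-26), 9.08% in 615, 8.99% in 818 (Ighv7-3), 8.16% in 624 (Ighv1-53), 7.88% in 961 and 6.15% in 980, and it was Ighv3-6 in 615, 961 and 980. The entropy was 5.25 to 5.73 bits, and 38.7 to 45 genes were expected in 100 counts.

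Lymphomas extended from this range to a single dominant gene. The leading share was above every normal thymus in 15 of 24 lymphomas, namely 3 of 7 untreated p53-/-, 4 of 7 treated p53-/- and 8 of 10 treated p53+/- lymphomas. The entropy was below every normal thymus in 15 of 24, and the number of genes in 100 counts in 13 of 24. Medians of the leading share were 9.04% in normal thymus, 11.5% in untreated p53-/- lymphomas and 14.6% in both the treated p53-/- and the p53+/- lymphomas. Without mice 881 and 98 the untreated median was 10.4%, with 1 of 5 above every normal thymus. Since lymphomas had fewer Ighv counts (median 380 over all 31 mice, against 3016 in normal thymus), the share in such a mouse is less precise than in normal thymus. Few counts also tend to raise the leading share and lower the entropy, the direction seen here, and how much of the difference this makes was not tested. Only the number of genes in 100 counts is set to one depth.

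**Figure D3:**
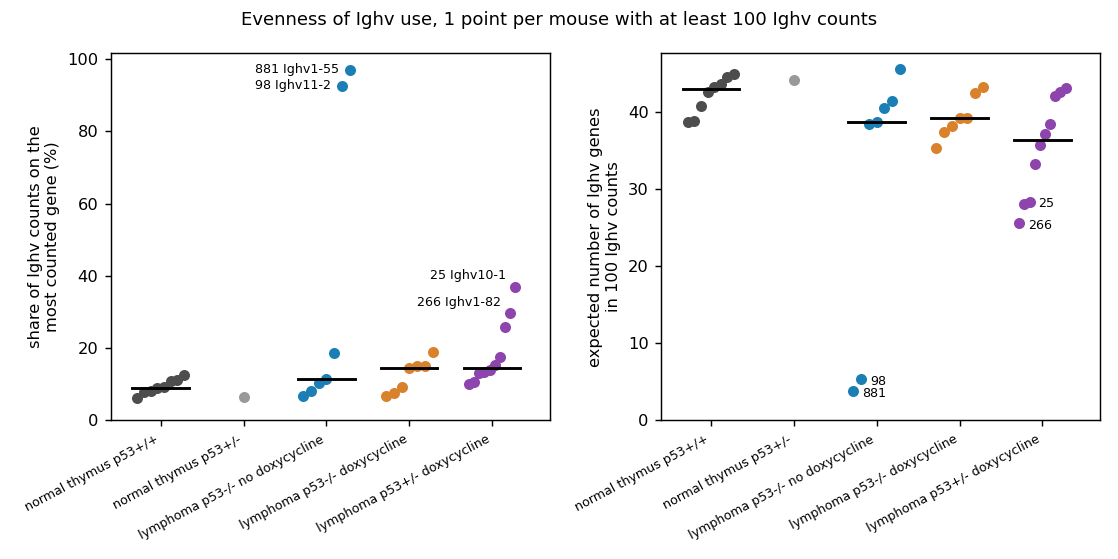
Share of the most counted Ighv gene in percent (left) and number of Ighv genes expected in 100 Ighv counts (right), 1 point per mouse with at least 100 Ighv counts and the group median as a bar. Mice 881 and 98 stand at 97.1% and 92.6% with 3.78 and 5.34 genes, and mice 25 and 266 lead the p53+/- lymphomas at 37% and 29.6%.

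The 33 mice were led by 18 different genes. Ighv3-6 led in 6 mice (4 of them normal thymuses, the p53+/- one included), Ighv1-26 in 4, Ighv1-82 and Ighv7-3 in 3 each, and Ighv11-2, Ighv9-3 and Ighv1-22 in 2 each. 5 lymphomas and no normal thymus had a leading gene with at least 20% of the Ighv counts, and these genes were Ighv1-55, Ighv11-2, Ighv10-1, Ighv1-82 and, in mouse 328 with 25.9% of only 116 counts, Ighv7-3.

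Ighv1-55 made up almost all Ighv counts of the untreated p53-/- tumour of mouse 881. Its share was 98.1% (Wilson 95% interval 97.6 to 98.5%), 96.7%, 97.7% and 96.0% in biopsies 1, 3, 5 and 7, of 3403, 5904, 3147 and 3321 Ighv counts. The summed Ighv level was 340, 273, 277 and 218 CPM, so all 4 biopsies lay within the range of normal thymus for the level and far outside it for the share. The remaining counts, 63.5 to 193 per biopsy, were spread over 26 to 51 other genes, and the largest of these took at most 0.510%. The near-identical Ighv1-62 received 6.31 counts in biopsy 3 and 0 in the others. The kappa light chain gave a leading gene too, Igkv4-72 with 66.5% of the mouse's Igkv counts, against 5.02 to 18.7% for the leading Igkv gene of normal thymus. As a group, untreated p53-/- lymphomas gave a log2 difference for Ighv1-55 of 2.46 from normal thymus (SE 1.81, edgeR adjusted p = 0.286), and of -3.40 without mice 881 and 98 (adjusted p = 0.0511).

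The tumour of mouse 881 also differed from the others in lineage markers. Pax5, the B-lineage transcription factor, was at 549 to 1227 CPM over its 4 biopsies. Vpreb1 and Igll1, the surrogate light chain genes of B-cell precursors, were at 410 to 574 and 335 to 497 CPM, against at most 2.30 and 0.554 CPM in normal thymus. Ighm was at 3548 to 5895 CPM, while Jchain, expressed in plasma cells, was at 2.90 to 5.70 CPM. Of the 9 T-lineage markers, Cd3e, Trac and Bcl11b were at 0.83 to 3.68, 1.44 to 4.0 and 0.65 to 6.04 CPM, and Cd3d, Cd3g, Cd8a and Cd8b1 at 0.509 to 8.86 CPM. Most of their sum came from Lck, at 87.1 to 123 CPM, and Cd4, at 21.4 to 65.3 CPM. In the 29 lymphomas other than 881 and 98, Cd3e was at 129 to 798, Lck at 265 to 1855 and Cd4 at 34.2 to 367 CPM. The libraries labelled as a thymic lymphoma of mouse 881 thus carried B-lineage marker RNA, with the T-cell receptor complex genes Cd3e, Cd3d, Cd3g and Trac near 0.

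Ighv11-2 dominated the untreated p53-/- tumour of mouse 98 (a single biopsy). It took 92.6% of 1223 Ighv counts (Wilson 95% interval 91.0 to 93.9%), and only 16 members were above 0. Ighv3-5 followed with 3.19% (39 counts), and the near-identical Ighv11-1 received 8.53 counts. Igkv14-126 took 90.4% of the Igkv counts. Ighv11-2 with Igkv14-126 is known as the heavy and light chain pairing of B-1 cell receptors for phosphatidylcholine. In this library B-cell and T-lineage genes stood side by side. Ms4a1, which encodes CD20, was at 90.7 CPM and Pax5 at 54.9, while Cd3e was at 197, Trac at 458 and Rag1 at 2048 CPM, and the leading T-cell receptor beta gene Trbv12-2 took 73.4% of Trbv counts. Vpreb1 and Igll1 were at 0.76 and 0.08 CPM, unlike in mouse 881. Ighv11-2 led in 1 other mouse, the treated p53-/- mouse 659, with 14.9% of 609 counts, where Igkv14-126 led at 11.8% and Trbv12-2 at 98.2%.

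Ighv11-2 was at 0.258 to 16.3 CPM in normal thymus and 85.7 CPM in mouse 98, and at 0 to 4.83 CPM in the other 9 untreated lymphomas. The untreated group gave a log2 difference of -0.79 (SE 1.43, edgeR adjusted p = 0.687), whose sign turned with the settings. Its fall in p53+/- lymphomas (adjusted p = 0.0155) was likewise not kept under every setting, as given above. Mouse 98 was the only labelled female among the untreated lymphomas, so for this gene the sex term and this tumour are not independent.

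Among treated p53+/- lymphomas, 2 of those with the highest Ighv level had uneven use. In mouse 25 Ighv10-1 took 37% of 1164 counts (Wilson 95% interval 34.3 to 39.8%) and Ighv7-3 14.9%, and Igkv10-96 led the light chain at 37%. The nearest member of Ighv10-1, Ighv10-3, had 3.95 counts. In mouse 266 Ighv1-82 took 29.6% of 6711 counts (28.6 to 30.7%) and Ighv9-3 20.1%. In 100 counts 25.6 genes were expected, the fewest of any mouse outside 881 and 98 with biopsies summed. Biopsy 5 of mouse 905 alone was at 25.1. The near neighbour of Ighv1-82, Ighv1-80, received 235 counts (3.51%) in mouse 266. Mouse 280, with a like Ighv level of 269 CPM, was more even, with Ighv1-22 at 15.4% and 42.6 genes in 100 counts, inside the range of normal thymus. In mice 25, 266 and 280 Cd3e was at 129, 215 and 449 CPM, so T-lineage RNA was present in each.

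**Figure D4:**
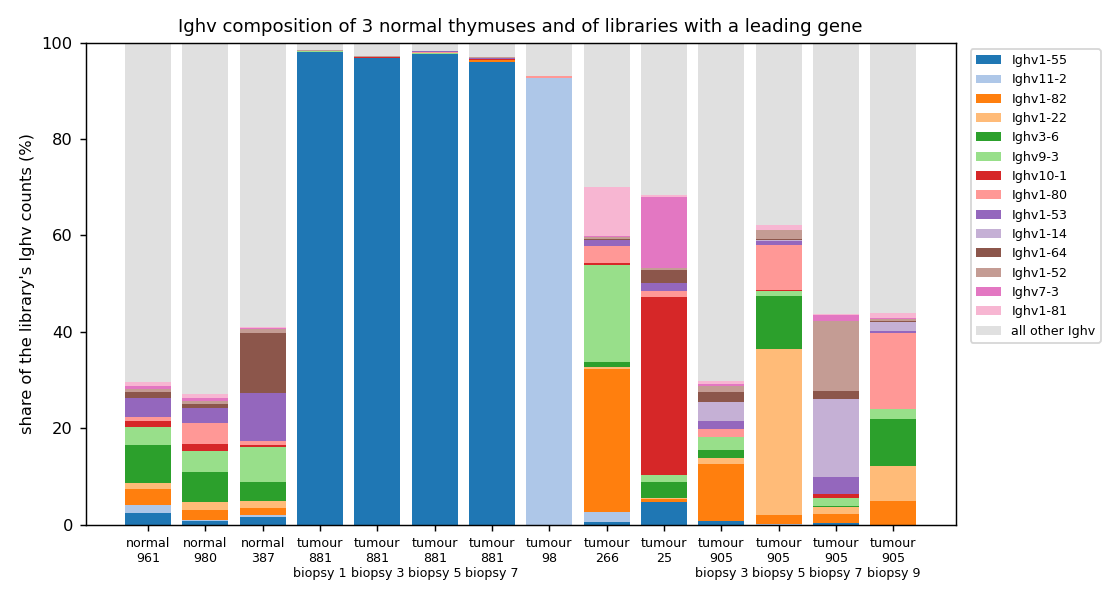
Share of Ighv counts by gene in percent for 3 normal thymuses, the 4 biopsies of mouse 881, the tumours of mice 98, 266 and 25 and the 4 biopsies of mouse 905, with 1 stacked bar per library, 14 genes coloured and the rest in grey. A single colour fills the bars of mouse 881 (Ighv1-55) and mouse 98 (Ighv11-2), while the biopsies of mouse 905 are led by 4 different genes.

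Biopsies of the same tumour differed in Ighv level and in leading gene, with mouse 881 as the exception. Among 12 multi-biopsy tumours with Ighv counts in every biopsy, the highest over the lowest Ighv CPM was 1.56 in mouse 881, had a median of 8.91 and reached 35.5 in mouse 862, and it was above 5 in 7 of the 12. The minimum of 100 Ighv counts was not applied here. The lowest biopsy held only 16 counts in mouse 862, 17 in 869, 18 in 202 and 4 in 894, so these ratios are rough. Of 9 tumours with at least 2 biopsies of 100 Ighv counts, the leading gene was the same in every such biopsy only in mouse 881. Some leaders were nearly tied with the second gene. The shares were 6.10% against 5.69% in biopsy 7 of mouse 325, and 10.8% against 10.7% in biopsy 3 of mouse 908. A change of leader there can be counting error, and no normal thymus had several biopsies to compare. The biopsies of a tumour are parts of a single mouse and are not replicates of a condition.

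**Figure D5:**
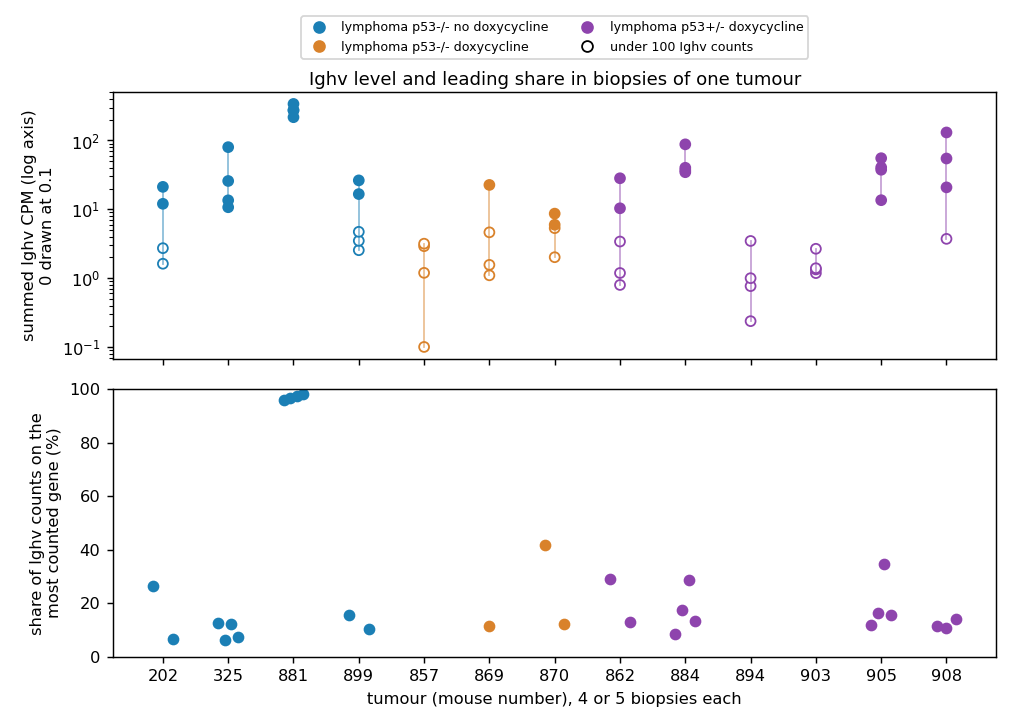
Summed Ighv CPM on a log axis (top) and share of the most counted Ighv gene in percent (bottom) for each biopsy of the 13 tumours with 4 or 5 biopsies, where open circles mark biopsies under 100 Ighv counts, which have no share. The 4 biopsies of mouse 881 sit together at 218 to 340 CPM and 96.0 to 98.1%, while the biopsies of mouse 862 range from 0.796 to 28.3 CPM.

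In the p53+/- tumour of mouse 905 each biopsy had a leading gene of its own. Biopsy 5 was led by Ighv1-22 with 34.6% of 607 counts (Wilson 95% interval 30.9 to 38.5%), while biopsies 3, 7 and 9 were led by Ighv1-82 at 11.8%, Ighv1-14 at 16.2% and Ighv1-80 at 15.8%. Ighv1-14, named after its values were seen, is annotated as a pseudogene, and pseudogenes took 19.2% of the Ighv counts of biopsy 7, against 0.0873 to 1.32% in normal thymus. The leading T-cell receptor beta gene, Trbv29, took 98.9% of the Trbv counts of this mouse, so 4 different Ighv leaders stood beside 1 Trbv leader.

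Other tumours had single biopsies with a high leading share at low counts. Ighv14-2 took 41.7% of 103 counts in biopsy 7 of the treated p53-/- mouse 870 (32.7 to 51.4%) and Ighv5-2 12.4% in biopsy 5. In mouse 884 Ighv1-39 took 28.7% of 153 counts in biopsy 5 and 8.38% in biopsy 6, Ighv3-6 13.3% in biopsy 2 and Ighv14-2 17.6% in biopsy 8. Ighv9-3 took 29.2% of 244 counts in biopsy 7 of mouse 862 and 10.9% in biopsy 9, which was led by Ighv1-11 at 13.1%. In the untreated mouse 202 Ighv2-3 took 26.4% of 165 counts in biopsy 1, while biopsy 3 was led by Ighv1-53 at 6.79%. The leaders of single biopsies outside the rule for named genes (Ighv14-2, Ighv5-2, Ighv1-39, Ighv1-11, Ighv2-3 and, in mouse 905, Ighv1-80) were named after their values were seen. Leaders were shared in part in the untreated mouse 325, where Ighv1-26 led biopsies 3 and 5 and Ighv1-39 biopsy 1, and in mouse 908, where Ighv14-4 (named after its values were seen) led biopsies 7 and 9.

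The overlap of Ighv use, the sum over genes of the smaller of the shares in a pair of libraries, runs from 0 for no gene in common to 1 for equal use. It was 0.968 to 0.986 over the 6 pairs of biopsies of mouse 881. Over the other 25 pairs from the same tumour it was 0.250 to 0.682 with a median of 0.489. Between lymphomas of different mice, also without mouse 881, the median was 0.364 over 641 pairs, and 0.357 over the 251 of them between tumours with several biopsies. With mouse 881 it was 0.334 over 789 pairs. Between normal thymuses the median was 0.567 over 28 pairs (0.473 to 0.705). Pairs share libraries and differ in depth, so these medians are descriptions.

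The light chain and heavy chain genes of the immunoglobulin pathway were mostly called lower in p53-/- lymphomas, while the recombination genes were not called in one direction. Against normal thymus, edgeR called lower 55, 60 and 41 of 63 tested Igkv genes in the untreated p53-/-, the treated p53-/- and the treated p53+/- lymphomas and none higher, where 17.6%, 26.7% and 25.3% of all genes were lower. Of 160 Igkv genes 29 passed the filter in the lymphomas alone, so the limit given for the Ighv genes holds for these counts too. It called lower all 4 light chain constant genes in each group, of which Igkc lost its call in p53+/- lymphomas without normal mouse 387 (log2 difference -2.24, adjusted p = 0.0585), and 5, 8 and 5 of the 8 heavy chain constant genes. Igkc, the kappa constant gene, had a median of 3204 CPM in normal thymus and 87.9, 64.3 and 220 CPM in the 3 lymphoma groups. Ighm, which encodes the constant part of IgM, had medians of 950 against 438, 368 and 576 CPM, with log2 differences of -1.16, -2.58 and -2.36 (edgeR adjusted p = 0.205, 0.00288 and 0.00253), so it was not called in untreated lymphomas with all mice in the fit. Without mice 881 and 98 it was called there too (-2.44, adjusted p = 0.00330), and without normal mouse 387 in none of the 3 (adjusted p = 0.737, 0.0978 and 0.157). The ratio of summed Ighv to Ighm CPM was 0.0963 to 0.410 in normal thymus (median 0.154) and below every normal thymus in 14 of the 24 lymphomas with at least 100 Ighv counts (median 0.0676). Switched isotypes made up a median of 57.6% of heavy chain constant counts in normal thymus and 15.7, 12 and 31.9% in the lymphoma groups. Of heavy chain constant genes in the p53+/- comparison 1 was called without normal mouse 387, and 13 of the Igkv genes, against 18.4% of all genes, so neither stood clearly above the background. In treated p53-/- lymphomas 5 heavy chain constant genes were called lower without mouse 387, against 20.8% of all genes. Of 7 genes of V(D)J recombination and end joining, Rag2 and Dntt were lower in untreated p53-/- lymphomas, Prkdc was higher in treated p53-/- lymphomas and none was called in p53+/- lymphomas.

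With all mice in the fit, plasma-cell markers were mostly called lower, and B-cell markers were in treated p53-/- lymphomas. The B-cell calls in p53+/- lymphomas rested on normal mouse 387. Jchain had a median of 367 CPM in normal thymus and 4.94, 7.67 and 27.9 CPM in the lymphoma groups, and 29 of 31 lymphomas lay below every normal thymus. Of 7 tested plasma-cell markers 4, 6 and 5 were called lower by edgeR and 1 higher in each group. Leaving out 1 normal thymus at a time gave 4 to 5, 4 to 7 and 3 to 6 lower. Of 12 B-cell markers 3, 10 and 9 were called lower and none higher, beside the 17.6%, 26.7% and 25.3% of all genes. In untreated lymphomas 3 of 12 is near that background, and the list's median log2 difference was 0.39, against -3.99 and -2.78 in the treated groups. Without mice 881 and 98, 11 of the 12 were called lower in untreated p53-/- lymphomas, and without normal mouse 387, 1, 6 and 1 were lower in the 3 groups, against 14.4%, 20.8% and 18.4% of all genes, and 1 was higher in untreated lymphomas. Summed over the B-cell markers, the median was 171 CPM in normal thymus and 43.1, 30.9 and 50.1 CPM in the lymphoma groups. The part of B-lineage cell content in the Ighv differences was not tested. Of the surrogate light chain and receptor list (Cd79a, Cd79b, Vpreb1, Vpreb3, with Vpreb2 and Igll1 not tested), Vpreb1 and Vpreb3 were called higher in untreated p53-/- lymphomas, with log2 differences of 4.39 and 5.26. Cd79a and Cd79b, the signalling chains of the B-cell receptor, were called lower in each treated group, and without mice 881 and 98 in untreated p53-/- lymphomas as well (-4.79 and -3.45, edgeR adjusted p = 0.000403 and 0.000566). With all lymphomas but without normal mouse 387, only Cd79a in treated p53-/- lymphomas was called (adjusted p = 0.0335), while Cd79b there (adjusted p = 0.148) and Cd79a and Cd79b in p53+/- lymphomas (adjusted p = 0.335 and 0.245) were not. Without mice 881 and 98 the untreated differences of Vpreb1 and Vpreb3 were -2.62 (edgeR adjusted p = 0.000722) and -1.10 (adjusted p = 0.245).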

How the data were processed

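The authors deposited 1 table of RSEM expected counts (estimated counts per gene) for 81 libraries, not scaled between libraries. Per the submitters' processing notes the tools were CASAVA 1.8, fastp, STAR 2.7.2b and RSEM 1.1.17, with build mm10, and the strandedness of counting is not given in the sources used here. Gene types, positions and transcripts came from GENCODE M21 (GRCm38), joined by gene ID.

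Ighv measures used the expected counts as deposited, with all genes as the CPM total. For tests, counts were summed per mouse, rounded to whole numbers and fitted with edgeR 4.0.16 (R 4.3.3; TMM, filterByExpr, robust quasi-likelihood, labelled sex as covariate), in 1 fit of p53+/+ normal thymuses and lymphomas and 1 of lymphomas alone. DESeq2 1.42.0 was an alternative, and others were RLE scaling, no low-count filter, no sex term, single-biopsy tumours, only the groups compared, and each normal thymus left out in turn; no single lymphoma was left out. Leaving out mice 881 and 98 was added after seeing the data. Wilson 95% intervals cover counting error only. The p53+/- normal thymus entered no test.

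On data simulated for treated p53-/- lymphomas against normal thymus (16951 genes), edgeR recovered 146 of 200 changed genes, 100 of 100 of those changed 4-fold, with 4 false calls. All genes were simulated with the same spread, and only genes above a minimum mean count were changed. The recovery of Ighv genes was therefore not tested. In the real comparison Ighv1-82, with a log2 difference of -2.98, was not called (edgeR adjusted p = 0.0565).

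Named were the 10 Ighv genes with the highest mean CPM over mice, genes leading in 2 or more mice or taking 20% of a mouse's Ighv counts, and up to 5 called genes per direction and comparison. The members and lists were chosen with earlier results of these data known.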

Additional observations from a re-analysis of the deposited data

Results flagged for a closer look

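In the treated p53+/- tumour of mouse 884, biopsy 2 stood apart from the other 3 in summed Ighv level. Its log2 CPM was 6.46 (87.9 CPM), against 40.2, 34.6 and 37 CPM in biopsies 5, 6 and 8. The gap to the nearest biopsy was 0.840 of the range, just above the critical value of 0.829 for 4 samples. This was the only flag among 35 groups tested, and chance flags about 1 in 20 groups.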

How the results depend on the processing

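Of 126 recomputed counts of Ighv calls 118 stayed within 1.5 times. Most of these 118 cannot show stability, because no Ighv gene was called before or after the change of setting. They are the counts called higher than in normal thymus and the counts among lymphoma groups. Of the 8 counts that moved further, all but 1 DESeq2 count among lymphoma groups were counts called lower than in normal thymus. No Ighv gene was called higher than in normal thymus under any setting. Ighv genes called lower in untreated p53-/- lymphomas were 75 of 88 tested by DESeq2, 87 of 144 with no low-count filter and 30 of 34 with only the 2 groups compared, beside 47 of 54. With no filter they were 88 in treated p53-/- and 59 in p53+/- lymphomas, of 144, and single-biopsy tumours gave 12 of 57 in the latter. Over all genes, 3656, 6073 and 5775 were lower with no filter in untreated p53-/-, treated p53-/- and p53+/- lymphomas. With only the 2 groups compared, 2228 were lower in untreated lymphomas. Shares of all genes were not computed for these 2 settings. Leaving out 1 normal thymus at a time gave 45 to 48, 45 to 52 and 8 to 37 lower. DESeq2 called 1 Ighv gene higher in p53+/- than in treated p53-/- lymphomas.

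B-cell genes called lower by DESeq2 were 3 in treated p53-/- and 2 in p53+/- lymphomas, of 4 tested. In untreated lymphomas they were 5 with single-biopsy tumours, 11 without mice 881 and 98 and 1 with only the 2 groups compared. In p53+/- lymphomas Igkv and heavy constant genes called lower were 62 and 3 with no filter and 19 and 2 with single-biopsy tumours. Leaving out 1 normal thymus gave, for B-cell genes, 0 to 1 higher and 1 to 3 lower in untreated, 6 to 10 lower in treated p53-/- and 1 to 10 lower in p53+/- lymphomas. It gave 5 to 8 heavy constant genes lower in treated p53-/- lymphomas, and in p53+/- lymphomas 1 to 6 heavy constant, 13 to 44 Igkv and 3 to 6 plasma-cell genes. The lowest count lower came without normal mouse 387 in each of these lists.

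With Ighv families in place of genes, the medians in normal thymus, untreated p53-/-, treated p53-/- and p53+/- lymphomas were 48.6, 63, 47 and 56.1% for the leading share. They were 2.62, 2.07, 2.47 and 2.15 bits for entropy, and 11, 10.5, 11 and 10.2 families in 100 counts. The overlap was 0.834 within tumours and 0.682 between lymphomas.

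In untreated lymphomas the log2 difference of Ighv1-55 turned to -2.92 with single-biopsy tumours and -3.40 without mice 881 and 98. That of Ighv11-2 turned to 0.92 without the sex term, 0.0018 with single-biopsy tumours and 0.20 without normal mouse 978, in a range of -1.11 to 0.20 over normal thymuses left out. Where no construction shows it, the cause was not tested. Lymphomas were not left out one by one. No paired analysis was possible because the mouse numbers are not shared between groups. Shares from libraries near 100 Ighv counts have wide intervals, and 31 libraries were below that minimum.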
